A study of Mus musculus with 11 samples.

Results

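Vascular endothelial growth factors (VEGFs) and angiopoietins are the secreted ligands that blood vessel cells read through a small set of receptor tyrosine kinases. The data described here are the transcripts of 10 of these genes in single cells of the mouse brain after stroke surgery: the ligands Vegfa, Vegfb, Vegfc, Angpt1 and Angpt2, and the receptors Kdr (VEGF receptor 2), Flt1 (VEGF receptor 1), Flt4 (VEGF receptor 3), Tek (also called Tie2) and Tie1. They were taken by gene symbol from the 32285 genes listed in every library, and all 10 were counted. The cells came from the right brain of 11 mice, 1 library a mouse, made with a 10x 3′ kit that counts unique molecular identifiers (UMIs) near the end of each transcript. In the sham + WT group 3 mice with an intact Lrg1 gene had sham surgery, and in the MCAO/R + WT group 2 such mice had middle cerebral artery occlusion and reperfusion. The sham + Lrg1-/- group and the MCAO/R + Lrg1-/- group held 3 mice each that lacked Lrg1, a gene for a secreted glycoprotein that acts on transforming growth factor-β signalling in vessels. The knockout was conventional, so the gene was missing from every cell of these mice throughout life, and its strain is given in one place as C57BL/6N, with backcrossing to that substrain, and in another as C57BL/6 J. The WT mice were young adult C57BL/6 males from another supplier and somewhat younger, and the sex of the Lrg1-/- mice is not given. Age, source and any difference of substrain or sex thus cannot be told apart from genotype. The reperfusion time of the sequenced brains was not in the labels, and which part of the right brain was used, infarcted or spared, is not given in the sources used here.

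VEGF-A, the main ligand of Kdr, drives endothelial growth and permeability and is induced when oxygen is low. Flt1 binds VEGF-A and VEGF-B tightly but signals weakly, and its soluble form traps the ligand. VEGF-C is the ligand of Flt4, a receptor best known from lymphatic vessels and sprouting tips. Angiopoietin 1, made by cells around vessels, activates Tek and keeps the endothelium quiet and sealed. Angiopoietin 2, stored in endothelial cells, competes for the same receptor and mostly loosens that seal, and Tie1 forms complexes with Tek and sets how it responds. The question put to the data was which cell types transcribe each ligand and receptor, and how that differs after MCAO/R and without Lrg1.

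Cells were kept with more than 500 genes, more than 1000 UMIs and under 25% mitochondrial UMIs. Of 155804 barcodes, 132437 passed these limits, 7946 were removed as probable doublets, and 98133 of the remaining 124491 cells were given 1 of 19 type names from marker genes, while 26358 stayed unnamed. Total UMIs per library ranged from 37159497 to 171813031. The median UMIs per cell ranged from 6064 to 9943 in the sham + WT libraries, 4674.5 to 7911 in sham + Lrg1-/-, 9611 to 11504 in MCAO/R + WT and 3190 to 6456.5 in MCAO/R + Lrg1-/-. Haemoglobin transcripts took 0.0236 to 0.0451% of the UMIs in the WT libraries and 4.35 to 10.05% in the Lrg1-/- libraries, so this mark of blood in the suspension moved with genotype throughout. Lrg1 itself gave 192 to 662 UMIs per sham + WT library and 16233 to 17868 per MCAO/R + WT library. The Lrg1-/- libraries held none, except 1 UMI in MCAO/R + Lrg1-/- replicate 5. Unnamed cells made up 2.602 to 11.55% of a WT library, 21.37 to 31.73% in sham + Lrg1-/- and 9.401 to 50.88% in MCAO/R + Lrg1-/-. The highest share was in replicate 5 of that last group, with 16347 unnamed cells. All Lrg1-/- libraries but MCAO/R + Lrg1-/- replicate 2 lay above every WT library. The cells left out of the named types thus also differed with genotype. Any pair of libraries shared between 14 and 180 cell barcodes. Levels are given as CPM, the UMIs of a gene per 1e+06 UMIs summed over the cells of that type in 1 library, and only libraries with 20 or more cells of a type were used for it. Fold changes are log2 values ± SE from edgeR's quasi-likelihood fit of the summed counts, with p-values adjusted by Benjamini-Hochberg across the tested genes of that cell type. To be called changed, a gene needed an adjusted p under 0.05 and a natural-log change of over 0.25 in either direction. No source says which mice were processed together. The p-values measure the spread between mice within a group, and not a difference of preparation shared by a whole group. Because UMIs are counted per gene at the transcript end, levels are compared for 1 gene between cells, not between genes.

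All 5 receptors were highest in the cells named endothelial, counting with them a small set named choroid plexus capillary endothelial cells. Levels between cell types are described without a test, since the types are clusters of the same cells, although the 10 genes were left out of the clustering. With coarser clusters (resolution 0.3) fibroblasts, pericytes, vascular smooth muscle cells and choroid plexus capillary cells were not named, and Kdr, Flt4, Tie1 and Angpt2 were then highest in endothelial cells and Angpt1 in astrocytes, while the leading type of the other 5 members was the same. In the sham + WT mice Flt1 was at 5564, 6159 and 6492 CPM in endothelial cells, against 270.3, 350.1 and 245 CPM in pericytes, the contractile cells that wrap capillaries. Kdr was at 389, 454 and 439 CPM in endothelial cells and 12.3, 9.74 and 17.8 CPM in pericytes. Tek was at 511, 575 and 608 CPM in endothelial cells and Tie1 at 176, 185 and 183 CPM. Flt4 was the most even receptor between mice, at 51.8, 50.96 and 51.7 CPM in the endothelial cells of the sham + WT group. Outside these cells the next highest type was taken among named types with more than 1 sham + WT library. For Tek this was ciliated ependymal cells, at 25.9, 11.1 and 32.2 CPM, and for Tie1 pericytes, at 6.84, 11.8 and 12.4 CPM. For Flt4 it was choroid plexus epithelial cells, at 1.66, 1.11 and 4.53 CPM from 3, 3 and 8 UMIs. Unnamed cells had more of each, with sham + WT means of 120.7 CPM for Tek, 46.8 CPM for Tie1 and 11.4 CPM for Flt4. In 1 sham + WT library each, Tek was at 68.8 CPM in red blood cells (2 UMIs) and 25.1 CPM in neutrophils (4 UMIs). On average 82.5% of all Kdr UMIs of a sham + WT library, 92.0% of Flt1, 87.8% of Flt4, 91.3% of Tek and 87.6% of Tie1 lay in cells named endothelial. In the MCAO/R + Lrg1-/- group these shares were lower and uneven, for example 41.3 to 81.9% for Kdr, and unnamed cells held 6.77 to 39.4% of its UMIs. The endothelial name itself rested on 7 markers, whose summed level was 15385 to 15890 CPM in the endothelial cells of the sham + WT mice and 11128 to 12997 CPM in those of the MCAO/R + Lrg1-/- mice.

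**Figure D1:**
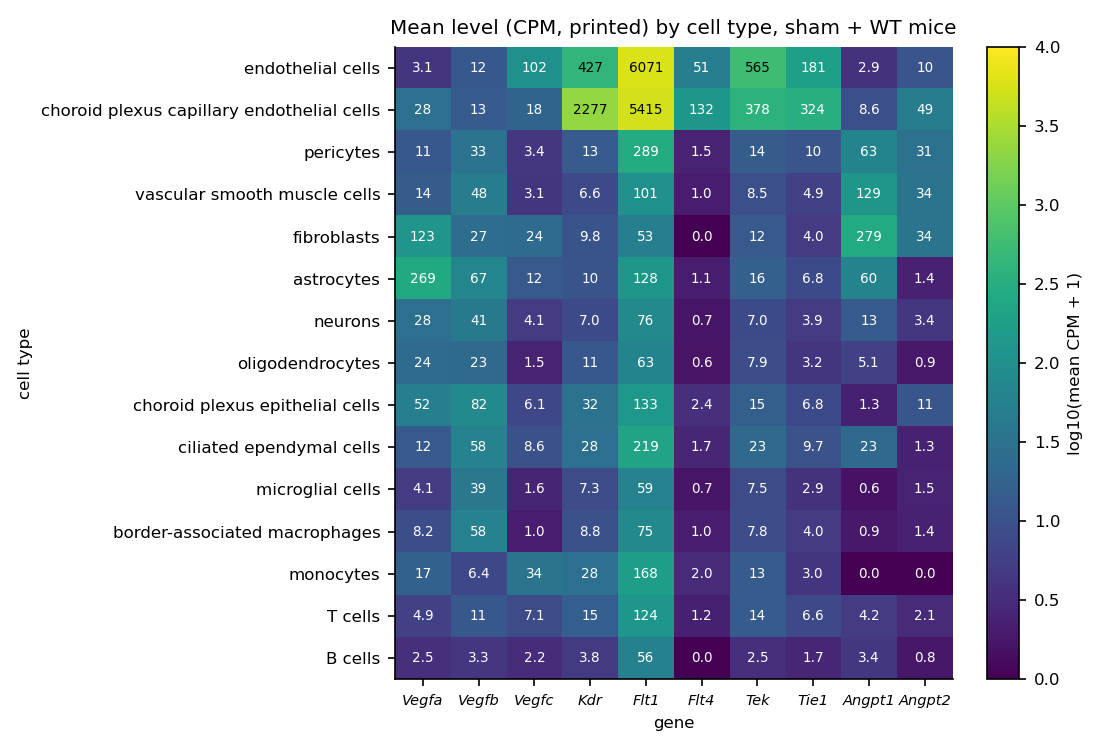
Mean level of the 10 genes (x axis) in the cell types of the sham + WT mice (y axis), with the mean CPM printed in each cell and a colour scale of log10(mean CPM + 1). The 5 receptors are highest in the endothelial rows at the top, and Vegfa is highest in astrocytes, with a mean of 269 CPM.

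In microglia the few UMIs of Kdr, Tie1 and Tek stood in a similar proportion to endothelial markers as in endothelial cells, while Flt1 was in lower proportion. The measure was the number of receptor UMIs per UMI of the 7 endothelial markers in the same cells. In the sham + WT libraries this ratio of Kdr to marker UMIs was 0.0253 to 0.0294 in endothelial cells and 0.0257 to 0.0332 in microglia, the resident immune cells of the brain. Tie1 gave 0.0114 to 0.0119 in endothelial cells and 0.0115 to 0.0133 in microglia. Tek gave 0.0332 to 0.0383 in endothelial cells and 0.0308 to 0.0334 in microglia. After MCAO/R in WT mice, when the endothelial ratio for Kdr was 0.0136 to 0.0149, the microglial ratio was 0.0152 to 0.0160. Flt1 gave 0.362 to 0.409 in endothelial cells and 0.237 to 0.261 in microglia of the sham + WT mice, and 0.308 to 0.331 and 0.219 to 0.222 in the MCAO/R + WT mice. The Flt4 ratio was 0.00325 to 0.00337 in endothelial cells and 0.00205 to 0.00392 in microglia of the sham + WT mice. In oligodendrocytes Kdr gave 0.0438 to 0.0573 in the sham + WT group and 0.0116 to 0.0125 in the MCAO/R + WT group. Pericytes departed from the endothelial ratio for Flt1, with a ratio of 0.651 to 0.953 in the sham + WT group and 0.689 to 1.06 in the MCAO/R + WT group, against 0.362 to 0.409 and 0.308 to 0.331 in endothelial cells. Pericytes of the MCAO/R + WT mice also had a higher ratio for Kdr, 0.0711 to 0.0924. The part that free RNA or mixed cells play in these levels was not tested.

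Endothelial cells were split into zones by markers of arteries, capillaries and veins, and the zones differed most in Vegfc. In the sham + WT mice Vegfc was at 359.5 ± 46.8 CPM (SD, n = 3) in arterial endothelial cells, 11.96 ± 1.31 CPM in capillary cells and 56.1 ± 15.4 CPM in venous cells. Kdr had the opposite order, with 299 ± 21.2 CPM in arterial, 497 ± 33.1 CPM in capillary and 463 ± 56.6 CPM in venous cells. Its capillary and venous ranges overlapped, at 459.7 to 522 and 403 to 515 CPM. Flt1 was lowest in venous cells, at 4265 ± 343 CPM, against 6807 ± 619 CPM in arterial cells. Tek and Tie1 varied little, from 509 ± 42.95 to 633 ± 49.97 CPM for Tek and from 169.99 ± 3.595 to 189 ± 16.9 CPM for Tie1. A separate set of 91 cells of the sham + WT mice carried markers of the fenestrated capillaries of the choroid plexus, the tissue that secretes cerebrospinal fluid. In these cells Flt1 was at 6352, 4439.9 and 5454 CPM. Kdr was at 2551, 2067 and 2213 CPM, above every endothelial zone of every mouse in that group, while Tek at 415, 374 and 346 CPM was below them. Flt4 was at 92.3, 171 and 132 CPM, Tie1 at 337, 308 and 328 CPM and Angpt2 at 67.4, 26.97 and 53.9 CPM there, in each case above the range of the zones of the same mice. Vegfa was at 24.8, 34.7 and 25.5 CPM in these cells and 2.17, 2.48 and 1.87 CPM in other capillary endothelial cells.

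The ligands came from other cell types than the receptors, with Vegfc and Angpt2 as exceptions. Vegfa was highest in astrocytes, whose end-feet cover brain vessels, at 299, 284 and 225 CPM in the sham + WT mice. Fibroblasts, cells of the meninges and vessel sheath, had 192 and 53.2 CPM in the 2 libraries with enough of them, and choroid plexus epithelial cells 55.998, 56.05 and 43.02 CPM. Astrocytes held 48.7 to 49.6% of the Vegfa UMIs of a sham + WT library and oligodendrocytes, the myelin-forming cells, 17.04 to 19.0%. Vegfb was spread more evenly: it was at 93.1, 70.8 and 80.95 CPM in choroid plexus epithelial cells, 60.3, 67.3 and 72.6 CPM in astrocytes, 52.2, 62.9 and 58.1 CPM in ciliated ependymal cells and 60.8, 61.7 and 50.1 CPM in border-associated macrophages, the resident macrophages of vessel sheaths and meninges. The range of astrocytes overlapped each of the other ranges. Microglia, the largest population, held 46.5 to 48.1% of its UMIs at 39.4, 38.7 and 40.4 CPM. Vegfc came to 81.6 to 91.1% from endothelial cells, where it was at 86.3, 114 and 105 CPM. Among named types Vegfc was next highest in monocytes, at 4.51, 26.1 and 70.3 CPM from 1, 6 and 12 UMIs. Fibroblasts followed, at 35.6 and 13.3 CPM from 10 and 5 UMIs in 2 libraries. Unnamed cells had a mean of 41.1 CPM in sham + WT.

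Angpt1 was highest in fibroblasts and vascular smooth muscle cells, with pericytes and astrocytes next. In the sham + WT mice it was at 435 and 122 CPM in fibroblasts of 2 libraries, 103, 148 and 134 CPM in vascular smooth muscle cells, which ring arteries, 49.96, 67.5 and 72.8 CPM in pericytes and 49.9, 80.7 and 50.1 CPM in astrocytes. The ranges of pericytes and astrocytes overlapped. Vascular smooth muscle cells held 23.8 to 33.6% of its UMIs and astrocytes 12.4 to 22.0%. Angpt2 was low in sham-operated WT brains, at 39.2 and 29.2 CPM in fibroblasts of 2 libraries, 36.1, 30.2 and 35.2 CPM in vascular smooth muscle cells, 21.2, 31.3 and 41.03 CPM in pericytes and 10.1, 12.7 and 8.66 CPM in endothelial cells. Endothelial cells, being many, held 37.5 to 43.6% of its UMIs in that group and 66.8 to 73.2% in the MCAO/R + WT group. Such shares also depend on how many cells of a type entered the suspension. In the sham + Lrg1-/- libraries choroid plexus epithelial cells held 23.8 to 43.8% of the Vegfa UMIs, against 4.19 to 6.53% in sham + WT.

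**Figure D2:**
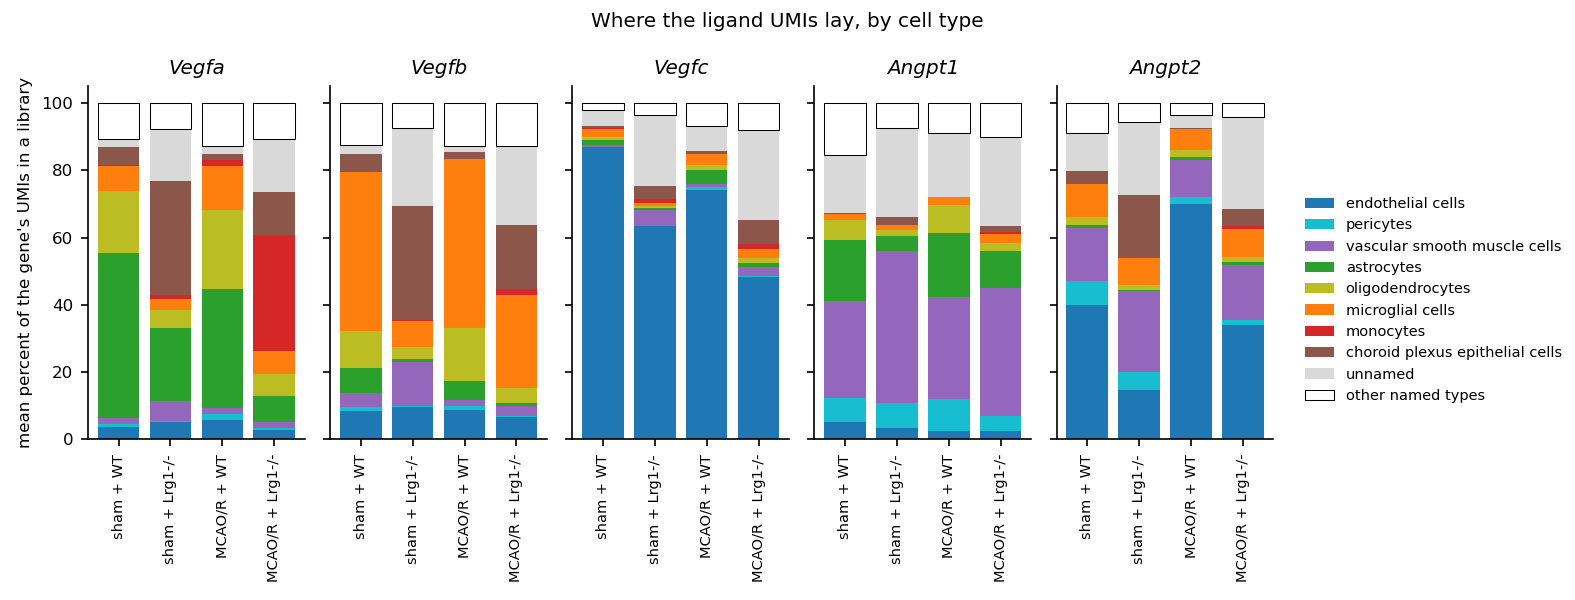
Stacked bars of the share of each ligand's UMIs that lay in each cell type (y axis, mean percent of the gene's UMIs in a library), with 1 bar for each of the 4 groups and unnamed cells in grey. Endothelial cells hold 86.9% of Vegfc and astrocytes 49.1% of Vegfa in the sham + WT mice, and the shares shift with the cell types that each suspension held.

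Over the 11 or 12 cell types that could be compared, 13 of 96 gene and cell type combinations were called between the MCAO/R + WT and sham + WT groups, 4 higher and 9 lower, while 9% of all tested genes were called. Between MCAO/R + Lrg1-/- and sham + Lrg1-/- 17 of 99 were called, 5 higher and 12 lower, with 10.1% of all genes. Endothelial cells accounted for 7 of the 13 and 6 of the 17, where 20.3% and 20.7% of all genes were called. In WT mice no member was called in astrocytes (1.75% of all genes called), border-associated macrophages (9.77%), choroid plexus epithelial cells (2.53%), ciliated ependymal cells (0.4%), pericytes (2.71%), neurons or fibroblasts (0% each). For Lrg1-/- mice the cell types without a call were T cells (1.07%), astrocytes (0.112%), choroid plexus epithelial cells (2.28%), neurons (0.138%), oligodendrocytes (12.7%) and pericytes (1.19%).

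After MCAO/R endothelial cells had more Angpt2 and Flt4 and less Vegfc, Kdr, Tek and Tie1, in both genotypes. Angpt2 was at 10.1, 12.7 and 8.66 CPM in the sham + WT mice and 87.6 and 47.1 CPM in the MCAO/R + WT mice. In the Lrg1-/- mice it was at 5.88, 8.13 and 8.88 CPM after sham surgery and 45.04, 69.9 and 49.9 CPM after MCAO/R. Every mouse with MCAO/R lay above every sham-operated mouse. The log2 change was 2.72 ± 0.28 in WT mice (edgeR adjusted p = 2.45e-05) and 2.89 ± 0.295 in Lrg1-/- mice (edgeR adjusted p = 8.6e-05). Flt4 rose from 51.8, 50.96 and 51.7 CPM to 88.5 and 79.2 CPM in WT mice and from 48.7, 50.8 and 55.5 CPM to 85.2, 72.8 and 81.4 CPM in Lrg1-/- mice. That was a log2 change of 0.73 ± 0.097 (edgeR adjusted p = 0.00017) and 0.61 ± 0.09 (edgeR adjusted p = 0.000857), with no overlap of the groups. In cells thinned to 1000 UMIs each, the Lrg1-/- change of Flt4 was 0.32 (edgeR adjusted p = 0.262). These rises, and the falls of Vegfc, Tek and Tie1 in both genotypes and of Kdr in WT mice, were called in each fit that left out 1 of the 11 libraries.

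Vegfc, the arterial ligand, was at 86.3, 114 and 105 CPM in sham + WT, 26.9 and 26.3 CPM in MCAO/R + WT, 70.1, 91.8 and 51.8 CPM in sham + Lrg1-/- and 26.2, 25.1 and 41.1 CPM in MCAO/R + Lrg1-/-. It fell by 1.91 ± 0.23 on the log2 scale in WT mice (edgeR adjusted p = 8.16e-05) and by 1.26 ± 0.21 in Lrg1-/- mice (edgeR adjusted p = 0.00136). Within arterial endothelial cells its mean level was 359.5 ± 46.8 CPM in sham + WT and 124 ± 10.4 CPM in MCAO/R + WT, with ranges of 317 to 409.6 and 117 to 131 CPM. Arterial cells made up 1146 of 6513 endothelial cells in sham + WT and 457 of 4706 in MCAO/R + WT.

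Kdr was at 389, 454 and 439 CPM in sham + WT and 195 and 199.7 CPM in MCAO/R + WT, a log2 change of -1.09 ± 0.19 (edgeR adjusted p = 0.00156). In the Lrg1-/- mice it was at 360.1, 445 and 365 CPM after sham surgery and 369, 244 and 198 CPM after MCAO/R, where replicate 1 lay within the sham range. That change, -0.55 ± 0.17 (edgeR adjusted p = 0.0354), was not called without sham + Lrg1-/- replicate 2 or 5 or MCAO/R + Lrg1-/- replicate 2 or 5, with adjusted p up to 0.125. Tek, the angiopoietin receptor, was at 511, 575 and 608 CPM in sham + WT and 251 and 289 CPM in MCAO/R + WT (log2 change -1.04 ± 0.14, edgeR adjusted p = 0.000187). It was at 427, 442 and 381 CPM in sham + Lrg1-/- and 309.9, 218 and 228 CPM in MCAO/R + Lrg1-/- (-0.75 ± 0.12, edgeR adjusted p = 0.00138). Its partner Tie1 went from 176, 185 and 183 to 102 and 104 CPM in WT mice (-0.79 ± 0.13, edgeR adjusted p = 0.000708) and from 156, 184 and 159 to 129, 108 and 91.2 CPM in Lrg1-/- mice (-0.62 ± 0.11, edgeR adjusted p = 0.00261). For Tek and Tie1 the MCAO/R and sham groups of the same genotype did not overlap. The fall of Flt1 in WT mice, from 5564, 6159 and 6492 to 4334 and 4541 CPM, was the smallest of the set at -0.43 ± 0.14 (edgeR adjusted p = 0.0417) and was called in only 3 of the 11 fits that left out 1 library. It was kept without MCAO/R + Lrg1-/- replicates 1 and 2 and without sham + Lrg1-/- replicate 5. In Lrg1-/- mice Flt1 changed by -0.29 ± 0.12 (edgeR adjusted p = 0.102), which was not called.

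**Figure D3:**
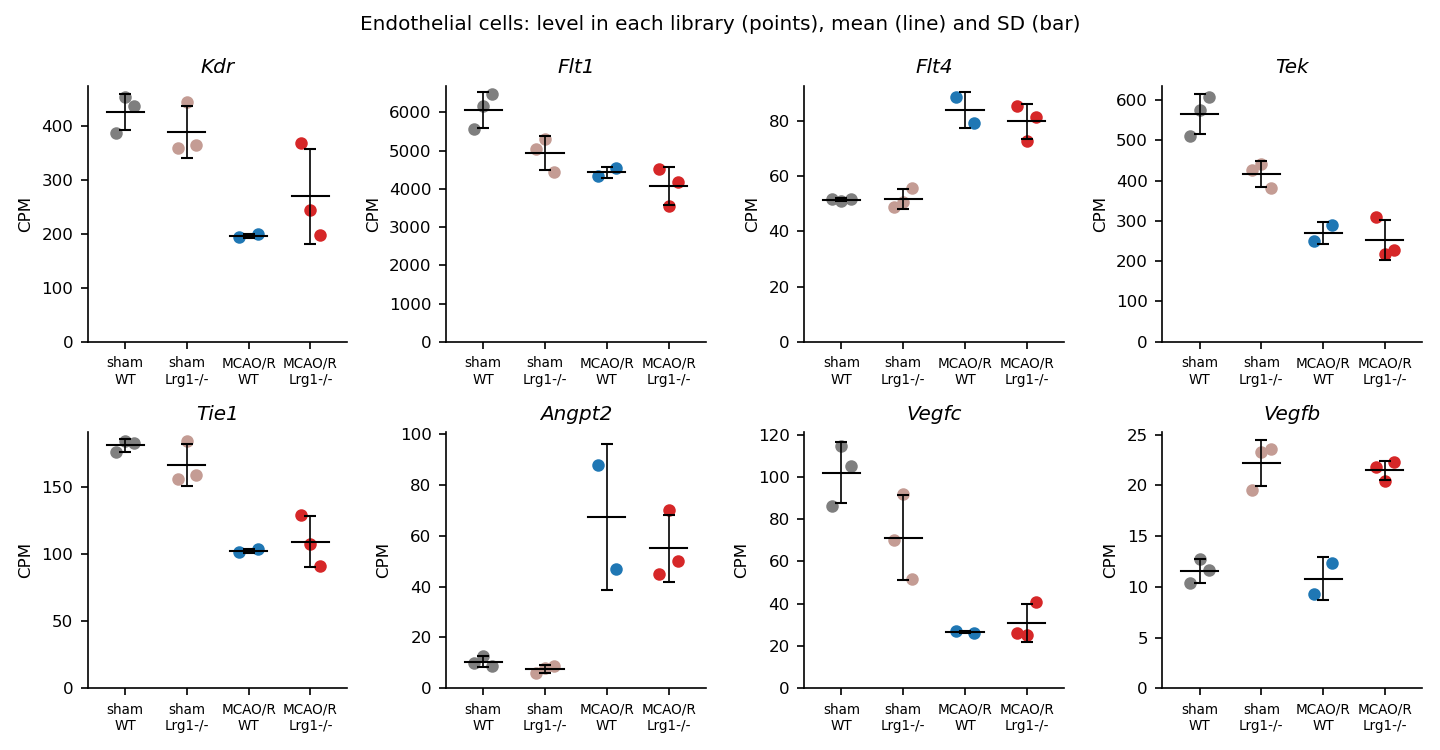
Level of 8 of the genes in endothelial cells, in CPM on the y axis, with 1 point per mouse in the 4 groups, a line at the group mean and a bar for the SD. Angpt2 and Flt4 are higher in the MCAO/R groups, and Vegfc, Tek and Tie1 lower, without overlap with the sham group of the same genotype.

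By zone, Kdr was lower after MCAO/R in each of the 3 zones and in cells of no named zone of WT mice, without overlap, while the groups overlapped in 2 of the 4 sets in Lrg1-/- mice, and these values carry no test. In WT mice mean Kdr went from 299 ± 21.2 to 142 ± 14.7 CPM in arterial cells, from 497 ± 33.1 to 233 ± 23.5 CPM in capillary cells, from 463 ± 56.6 to 149.6 ± 3.85 CPM in venous cells and from 385 ± 40.3 to 222 ± 6.38 CPM in cells of no named zone. In Lrg1-/- mice it went from 354 ± 37.8 to 187 ± 58.1 CPM in arterial and from 499 ± 65.7 to 309 ± 103 CPM in capillary cells, without overlap. The Lrg1-/- ranges overlapped in venous cells, at 318 to 436 and 190.3 to 321 CPM, and in cells of no named zone, at 293 to 348 and 210.3 to 386 CPM. Flt1 of the Lrg1-/- mice went from 6014 ± 94.8 to 4663 ± 388 CPM in arterial cells, while its ranges in cells of no named zone overlapped, with means of 4110.3 ± 531 and 3974 ± 409.7 CPM. Flt4 of WT mice went from 56.6 ± 0.591 to 95.6 ± 9.86 CPM in capillary cells and from 49.2 ± 3.63 to 75.5 ± 0.0459 CPM in venous cells. Angpt2 differed more by zone: in the MCAO/R + WT mice it was at 96.02 and 54.02 CPM in capillary cells and 119 and 80.7 CPM in endothelial cells that matched no zone, but 20.96 and 6.04 CPM in venous cells and 55.8 and 8.66 CPM in arterial cells. In MCAO/R + Lrg1-/- the order was another, with means of 76.3 ± 19.5 CPM in cells of no zone, 46.4 ± 31.2 CPM in arterial, 32.6 ± 0.985 CPM in capillary and 10.7 ± 10.97 CPM in venous cells, and the arterial range of 10.4 to 66.8 CPM held the capillary one. Cells of no named zone made up 1634 of 6513 endothelial cells in sham + WT and 2376 of 4706 in MCAO/R + WT. The endothelial cells of the 2 surgeries also fell into different clusters: 5866 of the 6513 sham + WT cells lay in 1 cluster and 4419 of the 4706 MCAO/R + WT cells in another, so the sham and MCAO/R values come from different clusters.

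**Figure D4:**
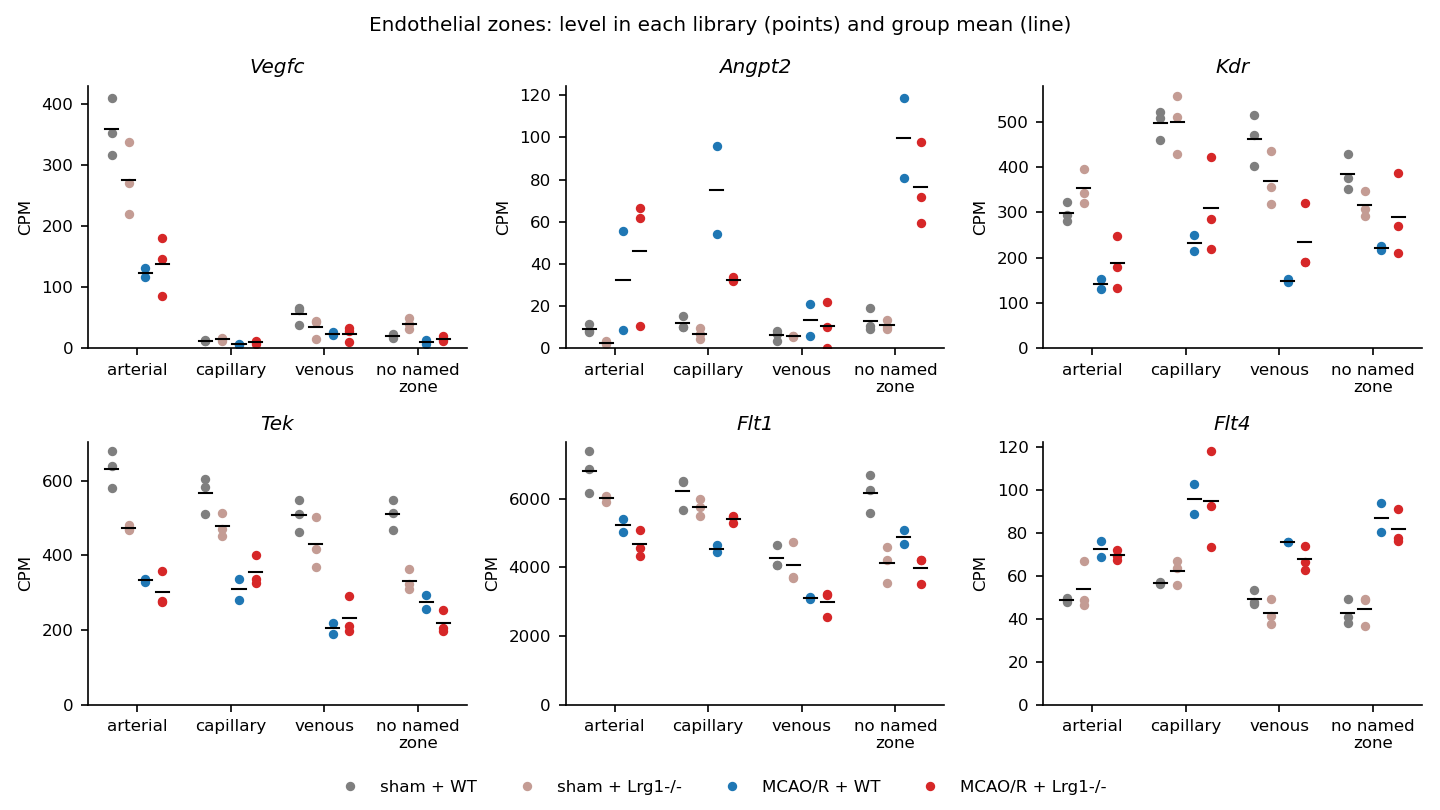
Level of Vegfc, Angpt2, Kdr, Tek, Flt1 and Flt4 in the endothelial zones (x axis), in CPM on the y axis, with 1 point per mouse, the 4 groups in colour and a line at the group mean. Vegfc is concentrated in arterial cells in every group, and Angpt2 after MCAO/R is highest in capillary cells and cells of no named zone in the WT mice.

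The promoters of Kdr and Tek, the main receptors of VEGF-A and of the angiopoietins, are shown because both fell in endothelial cells after MCAO/R. The sequences are the 250 bases before the transcription start in RefSeq on mouse build GRCm38.p6, written 5′ to 3′ on the strand of the gene. Capitals mark GGAAG or its reverse complement CTTCC, a form of the GGAA core that ETS-family transcription factors bind, counted on both strands. GGAA or TTCC beside other bases was neither marked nor counted, so the windows can hold more ETS cores than shown.
Kdr (chr5:75978456-75978705, minus strand): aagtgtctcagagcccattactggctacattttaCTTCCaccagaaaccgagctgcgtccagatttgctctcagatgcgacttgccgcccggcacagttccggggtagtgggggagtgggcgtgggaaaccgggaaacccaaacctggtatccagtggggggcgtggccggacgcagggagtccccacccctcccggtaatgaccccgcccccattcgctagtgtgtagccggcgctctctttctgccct
Tek (chr4:94739039-94739288, plus strand): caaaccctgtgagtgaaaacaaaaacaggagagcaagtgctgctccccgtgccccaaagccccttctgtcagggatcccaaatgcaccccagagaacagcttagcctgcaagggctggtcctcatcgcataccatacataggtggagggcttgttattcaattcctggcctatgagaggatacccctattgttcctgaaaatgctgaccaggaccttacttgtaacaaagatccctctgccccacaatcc
The Kdr window held 1 match to GGAAG or CTTCC and the Tek window none. Among the promoters not printed, Tie1 held 6, Flt1 3, Flt4 1, each of 2 Vegfa starts 1, and Vegfb and Vegfc none. Of all 32841 promoters searched 64.1% held at least 1. The hypoxia response core ACGTG, or CACGT on the other strand, was in 16.6% of all promoters. Among the 8 of the 10 genes with an entry, it was in the window of 1 of 2 Vegfa starts. That window, chr17:46025164-46025413, lies within the Vegfa gene, while the window of the other start, chr17:46032378-46032627, held none. Bases further upstream of either start were not searched. On GRCm38 in the GENCODE M21 annotation Kdr is at chr5:75932827-75978458, Flt1 at chr5:147561604-147726011, Flt4 at chr11:49609263-49652739, Tek at chr4:94739289-94874976 and Tie1 at chr4:118471191-118490061. The ligand genes are at chr17:46016993-46032369 (Vegfa), chr19:6982473-6987651 (Vegfb), chr8:54077606-54187096 (Vegfc), chr15:42424723-42676977 (Angpt1) and chr8:18690263-18741562 (Angpt2).

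Around the vessel, vascular smooth muscle cells also had more Angpt2 after MCAO/R, and Vegfa did not pass the test in any cell type of WT mice. Angpt2 in vascular smooth muscle cells was at 36.1, 30.2 and 35.2 CPM in sham + WT and 180.3 and 82.3 CPM in MCAO/R + WT (1.99 ± 0.38, edgeR adjusted p = 0.0194). In Lrg1-/- mice it was at 40.4, 30.5 and 19.999 CPM after sham surgery and 71.4, 165 and 122 CPM after MCAO/R (1.94 ± 0.35, edgeR adjusted p = 0.0235). In that cell type 2.18% and 1.8% of all genes were called. The WT call was lost without any of the 3 sham + WT mice or MCAO/R + WT replicate 1, and the Lrg1-/- call without sham + Lrg1-/- replicate 2 or MCAO/R + Lrg1-/- replicate 2 or 5, with adjusted p up to 0.28 and 0.115. Smooth muscle Angpt1 was at 103, 148 and 134 CPM in sham + WT and 236 and 299 CPM in MCAO/R + WT (1.08 ± 0.43, edgeR adjusted p = 0.26, not called). Astrocyte Vegfa was at 299, 284 and 225 CPM in sham + WT and 109 and 167 CPM in MCAO/R + WT, and at 262, 503 and 243 CPM and 213, 171 and 120.5 CPM in the Lrg1-/- groups. Neither difference passed: the log2 values were -0.99 ± 0.35 (edgeR adjusted p = 0.189) and -1.14 ± 0.32 (edgeR adjusted p = 0.134), although the groups did not overlap. In choroid plexus epithelial cells Vegfa was at 55.998, 56.05 and 43.02 CPM in sham + WT and 28.4 and 21.1 CPM in MCAO/R + WT (-1.15 ± 0.31, edgeR adjusted p = 0.0695, not called).

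Monocytes, the blood cells that enter injured tissue, carried Vegfa after MCAO/R. In the Lrg1-/- mice it was at 57.2 and 25.4 CPM in the 2 sham libraries with enough monocytes and 168, 195 and 128 CPM in the 3 MCAO/R libraries. That was a log2 change of 1.99 ± 0.38 (edgeR adjusted p = 0.00577), where 12.4% of all genes were called, and it was not called without sham + Lrg1-/- replicate 5 (adjusted p = 0.0799). The sham values rest on 21 and 7 UMIs. In WT mice the test could not be made, since only 1 MCAO/R + WT library had 20 monocytes, with 91.3 CPM. Monocytes held 10.4 to 56.6% of all Vegfa UMIs of an MCAO/R + Lrg1-/- library. Vegfc in the same cells was at 40.8 and 29.01 CPM in sham + Lrg1-/- and 3.81, 1.81 and 1.89 CPM in MCAO/R + Lrg1-/- (-4.01 ± 0.84, edgeR adjusted p = 0.00899), from 15 and 8 UMIs in sham + Lrg1-/- and 2, 19 and 16 UMIs in MCAO/R + Lrg1-/-, and was not called without sham + Lrg1-/- replicate 1 (adjusted p = 0.129). Of the 7 endothelial markers 2 were called lower in these monocytes.

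Several members were also called in glial cells, at far lower levels than in endothelial cells, and in the same direction. Oligodendrocyte Kdr was at 14.6, 9.09 and 9.58 CPM in sham + WT and 3.22 and 2.39 CPM in MCAO/R + WT (-2.09 ± 0.39, edgeR adjusted p = 0.00182). Tek in these cells was at 8.88, 6.34 and 8.52 CPM against 4.73 and 3.66 CPM (-1.01 ± 0.31, edgeR adjusted p = 0.0314) and Vegfc at 1.35, 1.18 and 1.88 CPM against 0.48 and 0.563 CPM (-1.53 ± 0.44, edgeR adjusted p = 0.023). The summed endothelial markers of oligodendrocytes were 187 to 254 CPM in sham + WT and 207 to 259 CPM in MCAO/R + WT, and 1 of the 7 was called higher and 1 lower. Among all genes of oligodendrocytes 21.9% were called. In microglia Angpt2 went from 1.58, 1.69 and 1.22 to 4.88 and 2.31 CPM in WT mice (1.29 ± 0.37, edgeR adjusted p = 0.0233), with 20.6% of all genes called. Microglial Vegfc fell in both genotypes, from 1.48, 1.64 and 1.55 to 0.795 and 0.602 CPM in WT (-1.12 ± 0.36, edgeR adjusted p = 0.0419) and from 1.61, 3.38 and 1.44 to 0.998, 0.835 and 0.56 CPM in Lrg1-/- mice (-1.39 ± 0.396, edgeR adjusted p = 0.0143). The part of free endothelial RNA in these low levels was not tested. The calls for Kdr were kept without each library in turn. Tek was lost without sham + WT replicate 1 or 3 or either MCAO/R + WT mouse, oligodendrocyte Vegfc without sham + WT replicate 3 or either MCAO/R + WT mouse, and microglial Angpt2 without sham + WT replicate 1 or 3 or MCAO/R + WT replicate 1. Microglial Vegfc was lost without any WT mouse in the WT comparison, and without sham + Lrg1-/- replicate 2 or MCAO/R + Lrg1-/- replicate 5 in the other.

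Microglia of Lrg1-/- mice had more Vegfb after MCAO/R, at 69.01, 49.2 and 33.3 CPM against 30.1, 33.2 and 39.3 CPM, ranges that overlap (0.69 ± 0.21, edgeR adjusted p = 0.0218). The WT change was -0.09 ± 0.22 (edgeR adjusted p = 0.817), and the interaction was not called at 0.78 ± 0.31 (edgeR adjusted p = 0.129). Microglial Tek was at 4.56, 6.41 and 2.06 CPM against 8.51, 12.2 and 9.38 CPM (-1.05 ± 0.35, edgeR adjusted p = 0.0312). In microglia 36.6% of all genes were called in this comparison. Ciliated ependymal cells, which line the ventricles, had lower Flt1, Kdr, Tek and Tie1 after MCAO/R in Lrg1-/- mice. Tie1, for example, was at 17.4, 22.9 and 49.3 CPM in sham + Lrg1-/- and 3.73, 5.38 and 3.81 CPM in MCAO/R + Lrg1-/- (-2.796 ± 0.47, edgeR adjusted p = 0.0156). Flt1 was at 313, 211 and 409 CPM against 74.6, 126 and 90.6 CPM, Kdr at 27.8, 42.5 and 76.4 CPM against 12.4, 11.5 and 19.7 CPM and Tek at 34.7, 37.6 and 62.9 CPM against 9.94, 12.5 and 9.77 CPM, with log2 values of -1.699 ± 0.34, -1.74 ± 0.42 and -2.09 ± 0.38 (edgeR adjusted p = 0.0241, 0.0497 and 0.0178). With cells of over 1% haemoglobin UMIs left out none of the 4 was called, Tie1 at -1.95 (edgeR adjusted p = 0.172). Beside this the summed endothelial markers of ependymal cells were 1434 to 3516 CPM in sham + Lrg1-/- and 450 to 1318 CPM in MCAO/R + Lrg1-/-, 3 of the 7 markers were called lower, and 2.42% of all genes were called. In border-associated macrophages Flt1 was at 117, 195 and 337 CPM in sham + Lrg1-/- and 51.3, 87.1 and 21.2 CPM in MCAO/R + Lrg1-/- (-1.63 ± 0.36, edgeR adjusted p = 0.00935). The summed endothelial markers were 318 to 740 and 104 to 398 CPM there, 2 of 7 were called lower, and 10.8% of all genes were called. The macrophage call was lost with doublets kept (-0.77, edgeR adjusted p = 0.361). Kdr of ependymal cells was called in 2 of 11 fits that left out 1 library (without sham + Lrg1-/- replicate 1 or sham + WT replicate 2), with adjusted p up to 0.14. Vegfb of microglia was lost without replicates 1 or 2 of either Lrg1-/- group and Tek of microglia without sham + Lrg1-/- replicates 2 or 5 or MCAO/R + Lrg1-/- replicate 1. Flt1 of ependymal cells was lost without sham + Lrg1-/- replicates 1 or 5 or MCAO/R + Lrg1-/- replicate 5, and Tek without the last of these.

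Between the genotypes after MCAO/R 7 of 92 combinations in 11 cell types were called, 5 higher and 2 lower in MCAO/R + Lrg1-/-, while 16.2% of all tested genes were called. In the sham groups 18 of 99 in 12 cell types were called, 16 higher and 2 lower in sham + Lrg1-/-, beside 12.8% of all genes. After MCAO/R no member was called between the genotypes in astrocytes (3.47% of all genes called), border-associated macrophages (15.8%), ciliated ependymal cells (4.4%), microglia (26.1%), neurons (3.59%), neutrophils (0.123%) or vascular smooth muscle cells (3.68%). In the sham groups the types without a call were T cells (12.4%), astrocytes (3.39%) and monocytes (0.47%), and border-associated macrophages had 1, Flt1, beside 2.57%.

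Endothelial cells of the Lrg1-/- mice had more Vegfb, a ligand of Flt1, after either surgery. It was at 10.3, 12.7 and 11.7 CPM in sham + WT and 19.6, 23.3 and 23.6 CPM in sham + Lrg1-/- (0.93 ± 0.13, edgeR adjusted p = 0.000474). After MCAO/R it was at 9.31 and 12.3 CPM in WT and 21.8, 20.5 and 22.3 CPM in Lrg1-/- mice (0.96 ± 0.15, edgeR adjusted p = 0.00069). All Lrg1-/- mice lay above all WT mice, and both calls were kept without each library in turn. In cells thinned to 1000 UMIs each, neither was called, with 0.41 (edgeR adjusted p = 0.449) and 0.75 (edgeR adjusted p = 0.072). In endothelial cells 26.9% of all genes were called between the genotypes after MCAO/R and 22.4% in the sham groups. Transcripts of haemoglobin and of choroid plexus, which serve here as tracers of RNA from other cells, were higher in endothelial cells of the same Lrg1-/- mice, 4 of 4 genes of each list after MCAO/R and in the sham groups, and choroid plexus epithelial cells were the type with the most Vegfb in the Lrg1-/- groups. Of 4 oligodendrocyte tracers 1, Mbp, was higher in the sham groups and none after MCAO/R. The part of free RNA in the Vegfb difference was not tested. Endothelial Vegfa was at 3.34 and 2.33 CPM in MCAO/R + WT and 4.84, 4.77 and 6.84 CPM in MCAO/R + Lrg1-/- (0.87 ± 0.303, edgeR adjusted p = 0.0486), a call kept in 2 of 11 fits that left out 1 library (without sham + Lrg1-/- replicate 1 or 5). Tek was lower in sham + Lrg1-/-, at 427, 442 and 381 CPM against 511, 575 and 608 CPM (-0.44 ± 0.12, edgeR adjusted p = 0.0181), and this was lost without sham + Lrg1-/- replicate 5 or sham + WT replicate 2 or 3, with adjusted p up to 0.0774, and with cells of over 1% haemoglobin UMIs left out (-0.34). After MCAO/R the genotype difference for Angpt2 was -0.31 ± 0.27 (edgeR adjusted p = 0.432) and for Kdr 0.405 ± 0.19 (edgeR adjusted p = 0.133), neither called.

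Whether MCAO/R acted differently in the 2 genotypes was tested as an interaction in 90 combinations of 10 cell types. edgeR called 0, where 1.75% of all genes were called. At an unadjusted p under 0.05 there were 14. The DESeq2 Wald test called 2, Flt1 in border-associated macrophages and Angpt2 in microglia, which are named here for that reason. For the unadjusted count and the DESeq2 calls no share over all genes is given, so neither is set against a background. The largest endothelial values were 0.65 ± 0.298 for Vegfc (edgeR adjusted p = 0.3) and 0.54 ± 0.25 for Kdr (edgeR adjusted p = 0.314). In endothelial cells 2.1% of all genes were called, in microglia 9.13% and in pericytes 0.00902%.

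Pericytes of the sham + Lrg1-/- mice had more of both angiopoietins than those of the sham + WT mice. Pericyte Angpt1 was at 49.96, 67.5 and 72.8 CPM in sham + WT and 165, 196 and 141 CPM in sham + Lrg1-/- (1.61 ± 0.27, edgeR adjusted p = 0.00132). Pericyte Angpt2 was at 21.2, 31.3 and 41.03 CPM and 122, 75.7 and 114 CPM in the same groups (1.96 ± 0.37, edgeR adjusted p = 0.00299). Neither pair of groups overlapped, and both calls were kept without each library in turn and with cells of over 1% haemoglobin UMIs left out. In cells thinned to 1000 UMIs each, neither was called, with 1.05 (edgeR adjusted p = 0.303) and 1.09 (edgeR adjusted p = 0.389). The sham + Lrg1-/- values rest on 31, 44 and 32 UMIs of Angpt1 and 23, 17 and 26 of Angpt2. After MCAO/R pericyte Angpt2 was at 25.6 and 14.5 CPM in WT and 82.5, 66.3 and 20.7 CPM in Lrg1-/- mice, where replicate 5 lay within the WT range (1.71 ± 0.38, edgeR adjusted p = 0.00526). Pericyte Vegfb was at 16.5 and 15.9 CPM in WT and 52.1, 37.04 and 20.7 CPM in Lrg1-/- mice (1.304 ± 0.32, edgeR adjusted p = 0.00949). Both were lost without MCAO/R + Lrg1-/- replicate 2 or MCAO/R + WT replicate 2, with adjusted p up to 0.0784. Pericyte Angpt1 was not called between the genotypes after MCAO/R. It was at 71.9 ± 13.8 CPM (SD, n = 2) in WT and 71.7 ± 32.5 CPM (SD, n = 3) in Lrg1-/- mice. In vascular smooth muscle cells mean Angpt1 was lower in Lrg1-/- mice after either surgery, without a call. Its ranges there were 103 to 148 CPM in sham + WT and 30.4 to 111 CPM in sham + Lrg1-/-. After MCAO/R they were 236 to 299 CPM in WT and 63.7 to 177 CPM in Lrg1-/- mice. In pericytes 8.64% of all genes were called in the sham groups and 18.6% after MCAO/R. Pericytes of the Lrg1-/- mice also held less of their own markers, with sums of 22368 to 23192 CPM in sham + WT, 10278 to 14478 in sham + Lrg1-/-, 15373 to 19796 in MCAO/R + WT and 8600 to 11219 in MCAO/R + Lrg1-/-. The summed endothelial markers in them were 349 to 415, 1095 to 1430, 353 to 408 and 410 to 877 CPM in the same order, and those of vascular smooth muscle cells 1760 to 1801, 1955 to 3931, 882 to 1165 and 973 to 1310 CPM. The part of these other cell types in the pericyte values was not tested.

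**Figure D5:**
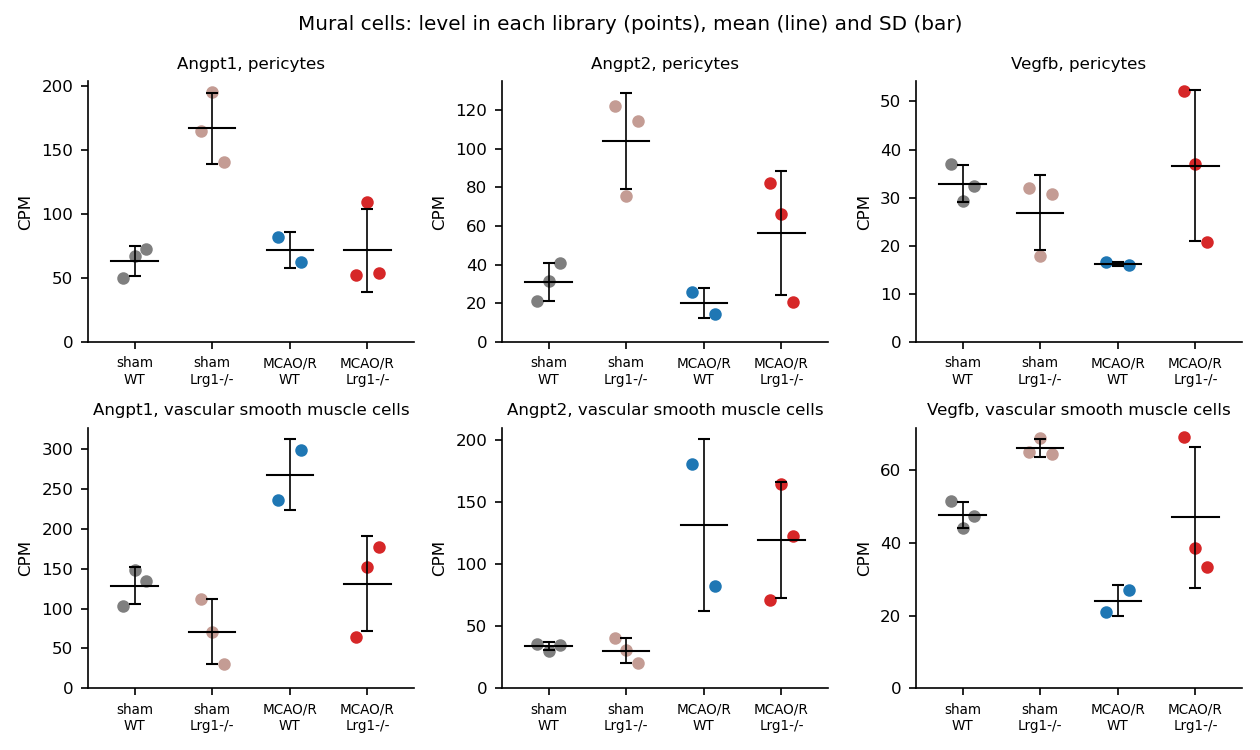
Level of Angpt1, Angpt2 and Vegfb in pericytes and vascular smooth muscle cells, in CPM on the y axis, with 1 point per mouse in the 4 groups, a line at the group mean and a bar for the SD. Pericyte Angpt1 and Angpt2 are higher in all 3 sham + Lrg1-/- mice than in the 3 sham + WT mice, and smooth muscle Angpt2 is higher after MCAO/R in both genotypes.

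Endothelial receptors were higher in several other cell types of the sham + Lrg1-/- mice, together with endothelial markers. In vascular smooth muscle cells Flt1, Flt4, Kdr, Tek, Tie1 and Vegfc were called higher than in sham + WT. Tek, for example, was at 7.48, 9.47 and 8.56 CPM in sham + WT and 17.96, 38.01 and 58.1 CPM in sham + Lrg1-/- (2.26 ± 0.58, edgeR adjusted p = 0.021). Vegfc was at 2.199, 4.21 and 2.85 CPM against 11.8, 12.5 and 10.6 CPM (1.96 ± 0.32, edgeR adjusted p = 0.00626), the one of the 6 that was called without each library in turn. Flt1 was at 117, 114 and 71.01 CPM against 131, 245 and 327 CPM, Kdr at 5.72, 10.2 and 3.804 CPM against 10.6, 28.2 and 38.8 CPM, Tie1 at 4.84, 4.91 and 5.07 CPM against 11.6, 24.9 and 39.3 CPM, and Flt4 at 1.32, 1.75 and 0 CPM against 2.21, 4.26 and 9.16 CPM. Their log2 values were 1.33 ± 0.37, 2.09 ± 0.702, 2.46 ± 0.69 and 2.49 ± 0.82, with edgeR adjusted p between 0.026 and 0.0472. With cells of over 1% haemoglobin UMIs left out Flt1, Kdr and Tie1 were not called and Flt4 was not tested, while Tek and Vegfc were called. Flt1, Kdr, Tie1, Flt4 and Tek were each lost without sham + Lrg1-/- replicate 5 and without any of the sham + WT mice, and all but Tek also without sham + Lrg1-/- replicate 2. Kdr and Flt4 were lost, too, without either MCAO/R + WT mouse and without MCAO/R + Lrg1-/- replicate 2 (Kdr) or 5 (Flt4), so that each was called in 3 of 11 such fits. With probable doublets kept none of the 6 was called, Vegfc at 0.996 (edgeR adjusted p = 0.0727). The summed endothelial markers of vascular smooth muscle cells were 299 to 413 CPM in sham + WT and 1108 to 4618 CPM in sham + Lrg1-/-, 6 of the 7 were called higher, and 25.6% of all genes were called. Per marker UMI, Kdr was at 0.0127 to 0.0287 in sham + WT and 0.00840 to 0.0118 in sham + Lrg1-/-. Neurons showed the same with Flt1, at 90.5, 76.04 and 60.9 CPM in sham + WT and 206, 292 and 1049 CPM in sham + Lrg1-/- (2.68 ± 0.61, edgeR adjusted p = 0.0268), and with Tek, at 7.95, 7.54 and 5.42 CPM against 15.2, 25.8 and 95.4 CPM (2.35 ± 0.61, edgeR adjusted p = 0.0453). Their endothelial markers summed to 210 to 315 and 685 to 4821 CPM, 6 of 7 were called higher, and 5.55% of all genes were called. Ependymal Tie1 was at 7.61, 7.86 and 13.5 CPM against 17.4, 22.9 and 49.3 CPM (1.89 ± 0.45, edgeR adjusted p = 0.0373), with 2 of 7 markers higher, and Flt1 of border-associated macrophages at 85.4, 69.4 and 69.3 CPM against 117, 195 and 337 CPM (1.31 ± 0.33, edgeR adjusted p = 0.0438), with none. Thinned to 1000 UMIs a cell, macrophage Flt1 was no longer higher in sham + Lrg1-/-, and not called. With cells of over 1% haemoglobin UMIs left out, the neuron and ependymal calls were lost and the macrophage one was kept. These 4 calls were lost without sham + Lrg1-/- replicate 5 or any sham + WT mouse, and all but Flt1 of neurons also without sham + Lrg1-/- replicate 2. Tek of neurons was lost, too, without MCAO/R + Lrg1-/- replicate 2 or either MCAO/R + WT mouse, and ependymal Tie1 without either MCAO/R + WT mouse, so that they were called in 3 and 4 of 11 such fits. The part of endothelial RNA in these receptor values was not tested.

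Angpt2 was also called higher in microglia and oligodendrocytes of the sham + Lrg1-/- mice, where 21.5% and 14% of all genes were called. In microglia it was at 1.58, 1.69 and 1.22 CPM in sham + WT and 8.07, 9.95 and 4.69 CPM in sham + Lrg1-/- (2.198 ± 0.37, edgeR adjusted p = 0.00119), from 63, 68 and 45 UMIs against 55, 53 and 13 UMIs, and the call was kept without each library in turn. Oligodendrocytes had 0.612, 1.24 and 0.819 CPM against 2.82, 3.25 and 1.62 CPM (1.52 ± 0.46, edgeR adjusted p = 0.0429), from 11, 6 and 2 UMIs in sham + Lrg1-/-. The microglial Angpt2 range in sham + Lrg1-/- overlapped that of endothelial cells of the same mice. The part of free RNA in these glial Angpt2 levels was not tested. Microglial Angpt1 was at 0.526, 0.648 and 0.488 CPM against 1.47, 0.938 and 2.17 CPM (1.19 ± 0.402, edgeR adjusted p = 0.0494). The last 2 were kept in 4 and 2 of 11 fits that left out 1 library, with adjusted p up to 0.155 and 0.15, and neither was called with cells of over 1% haemoglobin UMIs left out, while microglial Angpt2 was. After MCAO/R oligodendrocyte Angpt1 was lower in Lrg1-/- mice, at 1.48, 2.33 and 3.92 CPM against 8.64 and 6.504 CPM (-1.32 ± 0.41, edgeR adjusted p = 0.0288), lost without MCAO/R + Lrg1-/- replicate 1 or 2 or either MCAO/R + WT mouse. In choroid plexus epithelial cells Vegfb was at 103, 80.3 and 86.8 CPM in MCAO/R + Lrg1-/- and 69.1 and 59.7 CPM in MCAO/R + WT (0.71 ± 0.19, edgeR adjusted p = 0.0142). Flt1 in the same cells was at 46.3, 88.7 and 29.6 CPM against 161 and 189.6 CPM (-1.38 ± 0.38, edgeR adjusted p = 0.0146), with 2 of 7 endothelial markers lower, and 30.2% of all genes were called. Both were lost without MCAO/R + WT replicate 2, Flt1 also without replicate 1 of that group and Vegfb without MCAO/R + Lrg1-/- replicate 1. In the sham groups Kdr of these cells was at 7.91, 10.7 and 14.5 CPM in Lrg1-/- and 19.4, 18.1 and 57.2 CPM in WT mice (-1.39 ± 0.45, edgeR adjusted p = 0.0445), called in 5 of 11 fits that left out 1 library.

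Other genes of the pathway were read in endothelial cells from lists chosen by function. In this cell type 20.3% of all genes were called between the surgeries in WT and 20.7% in Lrg1-/- mice, 26.9% between the genotypes after MCAO/R, 22.4% in the sham groups and 2.1% for the interaction. Of 10 further ligands, co-receptors and modulators 8 were tested. In WT mice 2 were higher and 4 lower after MCAO/R, with a median log2 change of -0.47 against 0.01 over all genes. Angptl4, an angiopoietin-like secreted inhibitor of lipoprotein lipase, rose by 3.19 ± 0.304 (edgeR adjusted p = 1.49e-05) and Pgf, a ligand of Flt1, by 2.99 ± 0.65 (edgeR adjusted p = 0.00558). Nrp1, a co-receptor of VEGF-A, changed by -1.64 ± 0.18 (edgeR adjusted p = 4.7e-05) and Plxnd1, a semaphorin receptor, by -0.74 ± 0.17 (edgeR adjusted p = 0.007). In Lrg1-/- mice Angptl4 rose by 2.93 ± 0.33 and Pgf by 2.26 ± 0.68, and Ptprb, the phosphatase that acts on Tek, changed by -0.56 ± 0.13 (edgeR adjusted p = 0.000178, 0.0301 and 0.00753), these being all 3 of the 8 that were called. Between the genotypes after MCAO/R Angptl4 was lower in Lrg1-/- mice by 1.55 ± 0.296 on the log2 scale and Nrp1 and Plxnd1 higher, at 0.75 ± 0.18 and 0.61 ± 0.17 (edgeR adjusted p = 0.00226, 0.00771 and 0.0178). The interaction was called for Nrp1 at 1.38 ± 0.24 (edgeR adjusted p = 0.0123), 1 of the 8. In the sham groups Nrp1 and Angptl4 were the 2 called, at -0.62 ± 0.16 and -1.29 ± 0.33. Angptl4 also rose in pericytes, by 5.83 ± 0.42 in WT and 4.63 ± 0.87 in Lrg1-/- mice.

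Of 10 genes known to respond to VEGF all were tested in endothelial cells, and 1 was higher and 3 lower after MCAO/R in WT mice, where 20.3% of all genes were called, with a median of -0.48. Apln, the ligand apelin of sprouting tip cells, rose by 1.78 ± 0.45 (edgeR adjusted p = 0.0139), while the transcription factors Hlx and Nr4a1 changed by -1.57 ± 0.22 and -1.12 ± 0.17 and the chemokine receptor Cxcr4 by -1.23 ± 0.37. Apln was at 1.202, 2.25 and 1.45 CPM in sham + WT, 8.54 and 2.16 CPM in MCAO/R + WT, 0.871, 0.524 and 1.13 CPM in sham + Lrg1-/- and 50.4, 63.1 and 80.1 CPM in MCAO/R + Lrg1-/-, where all 3 mice lay above every other mouse, while MCAO/R + WT replicate 2 lay within the sham + WT range. In Lrg1-/- mice Apln rose by 6.35 ± 0.53 (edgeR adjusted p = 3.98e-05), with Hlx and Nr4a1 lower, and the median was -0.01. Apln, Cxcr4 and Hlx were higher in MCAO/R + Lrg1-/- than in MCAO/R + WT, by 3.502 ± 0.44, 1.36 ± 0.3999 and 0.69 ± 0.23 (edgeR adjusted p = 0.000159, 0.0231 and 0.0381), 3 of 10, which is near the 26.9% called among all genes. The interaction was called for Apln alone of the 10, at 4.57 ± 0.77 (edgeR adjusted p = 0.011), and in the sham groups Dll4, a Notch ligand of tip cells, was the 1 called, at -0.71 ± 0.202. Of 17 hypoxia genes 5 were higher and 3 lower after MCAO/R in WT mice and 4 higher and 2 lower in Lrg1-/- mice, beside 20.3% and 20.7% of all genes. The glucose transporter gene Slc2a1 rose by 1.61 ± 0.14 and 0.87 ± 0.13 and Ddit4, a stress gene, by 1.53 ± 0.18 and 1.01 ± 0.17, each with edgeR adjusted p of at most 0.0018. After MCAO/R 5 were higher and 6 lower in Lrg1-/- than in WT mice, Slc2a1 at -1.002 ± 0.14, Ndrg1 at -0.95 ± 0.104, Ddit4 at -0.91 ± 0.18 and Eno1, an enzyme of glycolysis, at 0.89 ± 0.17. In the sham groups Hk2, Bnip3, Pgk1 and Aldoa, 4 of the 17, were higher and none lower, from 0.44 ± 0.15 to 1.38 ± 0.203. Beside this 3667 of all 16400 endothelial genes were called there, a similar share. The interaction was called for Ndrg1, Bnip3 and Eno1, at -0.74 ± 0.14, -1.18 ± 0.24 and 1.08 ± 0.23.

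Of the 7 genes of Lrg1 and its transforming growth factor-β partners, a list chosen by function, 2 were higher and none lower in endothelial cells after MCAO/R in WT mice, beside 20.3% of all genes. These were Lrg1, by 5.19 ± 0.48, and Smad1, a signal transducer, by 0.53 ± 0.14. In Lrg1-/- mice Smad1 was higher and Id1, Id3 and Eng lower, at 0.69 ± 0.13, -1.01 ± 0.17, -0.86 ± 0.14 and -0.38 ± 0.13 (edgeR adjusted p = 0.00344, 0.00142, 0.00149 and 0.0497). Id1 and Id3, targets of this pathway, were also lower in MCAO/R + Lrg1-/- than in MCAO/R + WT, at -0.53 ± 0.18 and -0.58 ± 0.16 (edgeR adjusted p = 0.0457 and 0.0151). The 7 also include Lrg1, whose difference between the genotypes is fixed by the knockout and is not counted here. Among all endothelial genes 4413 of 16400 were called. The interaction was called for both Id1 and Id3, at -1.16 ± 0.25 and -0.902 ± 0.21 (edgeR adjusted p = 0.0324 and 0.0478), beside 344 of 16400 genes.

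Over 18 named cell types, with the mean of log2(CPM + 1) per type, the genes whose levels most resembled those of each member were found among genes that reached 10 CPM in a type. For Kdr these were Tie1 (Pearson r = 0.97) and Fgd5 (0.97), for Flt1 Ptprb (0.98) and Sox7 (0.97), for Tek Ptprb (0.98) and Erg (0.98), for Tie1 Ptprb (0.98) and Podxl (0.98), and for Flt4 Fmo2 (0.99) and B3gnt3 (0.99). For the ligands they were Agpat5 (0.79) and Elmo2 (0.78) for Vegfa, Mettl21a (0.87) and Lyplal1 (0.87) for Vegfb, Trpm6 (0.80) and Itga3 (0.74) for Vegfc, Fstl1 (0.92) and S1pr3 (0.89) for Angpt1, and Phldb2 (0.95) and Lama4 (0.92) for Angpt2. The points share libraries and depth, so these values describe the 18 cell types and carry no test.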

How the data were processed

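Right brains of 11 mice were dissociated and sequenced as 10x 3′ v3 libraries. The deposited matrices hold UMI counts, which the authors made with Cell Ranger (7.0.1 per the file headers) on mm10, with STAR named in the processing notes, and without further normalization. From these counts, probable doublets (6% of each library's cells, the nearest to simulated pairs) were removed and cells were clustered with leidenalg 0.10.2 on 15 principal components of 2000 variable genes, the 10 members left out. A cluster was named when at least 3 of a type's markers passed. UMIs were summed per library and cell type and tested with edgeR 4.0.16 (TMM factors, filterByExpr, quasi-likelihood test) in 1 fit of the 4 groups per cell type, and a contrast needed 2 libraries a group. Data were simulated for MCAO/R + Lrg1-/- against MCAO/R + WT, with 15981 endothelial and 10681 pericyte genes. In each cell type 100 genes were given a 2-fold and 100 a 4-fold change. The test found 77% of the 2-fold and 98% of the 4-fold changes in endothelial cells, and 35% and 96% in pericytes. Of its calls in these cell types, 4.37% and 8.39% were genes simulated without a change. The changed genes were drawn only from genes above a minimum mean UMI count per library, and recovery was not split by UMI count. These shares thus do not describe genes with few UMIs. Alternatives were DESeq2 1.42.0 with its size factors, no filter, doublets kept, at most 10% mitochondrial UMIs, resolution 0.3, cells over 1% haemoglobin left out, thinning to 1000 UMIs, 50 cells per library, a replicate block and each library left out. The genes named are the 10 members, with values by library in their 3 leading cell types and wherever called, at most 4 called genes of each other list per comparison with the smallest adjusted p, Lrg1, and the 2 genes most like each member over cell types. Members and lists were chosen with earlier results of these data known. Promoters came from RefSeq and gene positions from GENCODE M21; Angpt1 and Angpt2 promoters are not used here. UMIs of near-identical or overlapping genes were counted as the authors' counting assigned them.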

Additional observations from a re-analysis of the deposited data

How the results depend on the processing

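The endothelial rises of Angpt2 and falls of Vegfc, Tek and Tie1 after MCAO/R, in both genotypes, and the WT changes of Flt4 and Kdr, were called under every alternative run. Of the 55 calls 54 were made with DESeq2 size factors and 54 by the DESeq2 Wald test, 43 with doublets kept, 51 of 53 tested at 10% mitochondrial UMIs, 25 of 39 at resolution 0.3, 41 of 54 without cells of over 1% haemoglobin, 22 of 40 in cells thinned to 1000 UMIs and 44 of 47 with 50 cells per library. Fewer cell types could be tested under several of these, and the cause of the other losses was not tested. The share of all genes called under each alternative, or with a library left out, is not given here. The counts of calls thus stand without that background. Without a filter on low counts, when more combinations entered the test, 17 gene and cell type combinations were called between MCAO/R + Lrg1-/- and MCAO/R + WT (7 with it), 36 between MCAO/R + Lrg1-/- and sham + Lrg1-/- (17), 22 between MCAO/R + WT and sham + WT (13), 28 between the sham groups (18) and 5 for the interaction (0), for which DESeq2 called 2. After thinning, 1 of 45 combinations tested was called between the MCAO/R groups and 3 of 45 between the sham groups. At resolution 0.3, where several vascular types were not named, 7 of 73 were called in the Lrg1-/- surgery comparison and 7 of 73 between the sham groups, 4 of these among the 18, and 5 of 10 members had the same leading cell type. Without haemoglobin-rich cells 8 of 94 were called between the sham groups, all among the 18. After thinning, the log2 fold change of Flt1 in border-associated macrophages, sham + Lrg1-/- minus sham + WT, turned to -0.0493. With doublets kept, the log2 fold change of Flt1 in pericytes, sham + Lrg1-/- minus sham + WT, turned to -0.00173.

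Of the 55 calls 20 were made in every fit that left out 1 library and 35 were lost in at least 1. Leaving out 1 library gave 2 to 12 calls between the MCAO/R groups (2 without MCAO/R + WT replicate 2, 12 without MCAO/R + Lrg1-/- replicate 5), 9 to 21 in the Lrg1-/- surgery comparison (9 without sham + Lrg1-/- replicate 2, 11 without MCAO/R + Lrg1-/- replicate 5), 7 to 19 in the WT surgery comparison (7 without MCAO/R + WT replicate 1), 5 to 21 between the sham groups (7, 6 and 5 without sham + WT replicates 1, 2 and 3, 11 and 6 without sham + Lrg1-/- replicates 2 and 5) and 0 to 1 for the interaction. A lone MCAO/R + WT mouse is then assumed to vary like the other groups. Groups share replicate numbers. Deviations from the group means correlated at -0.48 to 0.21 between libraries of the same number in endothelial cells and -0.30 to 0.48 between those of other numbers. In microglia these ranges were -0.45 to 0.23 and -0.52 to 0.52. The deviations of the 2 MCAO/R + WT mice mirror each other by construction, so these values cannot decide whether a number marks a shared effect. With the replicate block 7 combinations were called in the WT surgery comparison and 4 between the sham groups, 33 of the 55 calls in all. Low UMI counts outside endothelial cells, and 2 MCAO/R + WT mice, limit the other comparisons.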
